A study of Mus musculus with 9 samples.

Results

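The 33 genes described here encode enzymes and regulators of sterol and fatty acid synthesis. They were chosen by gene symbol, not by their values, and all 33 were found by Ensembl identifier among the 34866 genes of the deposited tables. They comprise 8 enzymes of the mevalonate pathway and its branches, 11 enzymes from squalene to cholesterol, 6 regulators and transport proteins, and 8 lipogenic enzymes, which make and modify fatty acids. The RNA came from primary macrophages of the mouse, the cells that engulf microbes and dying cells, cultured in 3 groups of 3 samples. Standard oxygen cells were kept for 7 days in standard oxygen, acute hypoxia cells spent their last 3 hours at 1% oxygen, and chronic hypoxia cells spent all 7 days at 1% oxygen. The culture medium of all groups was alpha-MEM, to which 10% fetal bovine serum and 10% medium from cultures of L929, a mouse fibroblast line, had been added. No genotype, strain or age is given in the labels. The labels call the replicates biological but do not say whether they came from separate animals or cultures, so p-values measure the spread between these samples.

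Cholesterol is built from acetyl-CoA through mevalonate, isoprenoids and squalene. The first enzyme to act on squalene and several that act on the later sterols need molecular oxygen, and so do the desaturases, which place double bonds in fatty acids. When cell sterols are low, the escort protein SCAP carries the transcription factors SREBP1 and SREBP2 out of the endoplasmic reticulum to be cut and activated, and the INSIG proteins hold the complex back when sterols are plentiful. SREBP2 is best known for driving the sterol enzymes and SREBP1 for the lipogenic ones. Among the 33 genes, 8 encode enzymes that use molecular oxygen: Sqle, Cyp51, Msmo1 and Sc5d in the sterol pathway, and the desaturases Scd1, Scd2, Fads1 and Fads2.

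Promoter sequences are shown because SREBPs act through short elements close to the start of these genes, together with the factors NF-Y and Sp1. RefSeq windows on GRCm38.p6, from 250 bases before to 50 bases after an annotated start, were matched by symbol for 26 of the 33 genes, the others being Fdps, Fdft1, Sqle, Stard4, Scd1, Scd2 and Fads1. The sequences below are the 250 bases before the start, on the strand of the gene and 5′ to 3′. Capitals mark the sterol regulatory element core TCACNCCAC and the NF-Y motif CCAAT, each on either strand, so that ATTGG is CCAAT on the other strand. Hmgcs1, which makes the HMG-CoA that enters the mevalonate pathway, is shown as the gene with the sterol element core, at chr13:119690101-119690350, + strand. Mvk, mevalonate kinase, is shown for its CCAAT copies and had the highest chronic fold change of its group, at chr5:114444019-114444268, + strand. Srebf1, the gene of SREBP1, is shown as the gene whose difference passed the test in chronic hypoxia, at chr11:60210472-60210721, - strand, and is 1 of 3 windows listed for it.
Hmgcs1: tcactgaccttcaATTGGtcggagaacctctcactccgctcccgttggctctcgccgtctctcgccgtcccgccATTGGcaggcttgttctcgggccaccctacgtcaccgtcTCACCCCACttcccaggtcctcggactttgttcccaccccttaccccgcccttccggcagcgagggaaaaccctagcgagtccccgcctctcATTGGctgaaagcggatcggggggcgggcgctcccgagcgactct
Mvk: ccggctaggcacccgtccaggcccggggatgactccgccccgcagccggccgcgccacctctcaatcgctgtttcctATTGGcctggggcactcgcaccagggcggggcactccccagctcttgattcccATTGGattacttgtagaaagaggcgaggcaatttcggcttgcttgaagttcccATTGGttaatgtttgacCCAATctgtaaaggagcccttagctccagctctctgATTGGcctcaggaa
Srebf1: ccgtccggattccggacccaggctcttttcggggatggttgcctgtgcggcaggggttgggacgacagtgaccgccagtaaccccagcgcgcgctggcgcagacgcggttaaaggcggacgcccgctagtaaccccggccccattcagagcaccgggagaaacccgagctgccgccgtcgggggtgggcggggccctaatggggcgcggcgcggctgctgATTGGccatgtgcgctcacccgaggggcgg

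The core TCACNCCAC was found in the window of 1 of the 26 genes (3.85%) and in 1.38% of the 8507 genes with a window and a mean of at least 1 TPM. TPM, the unit of the deposited tables, gives a gene's share of all transcripts in a library, corrected for gene length. In Hmgcs1 the match read TCACCCCAC and began 137 bases before the start. CCAAT was found in 21 of the 26 genes (80.8%) and in 43.5% of the 8507 genes. By role, it was in 9 of 9 sterol enzymes with a window, 6 of 7 mevalonate enzymes, 4 of 5 regulators and 2 of 5 lipogenic enzymes. On either strand, the Sp1 motif GGGCGG was in 21 of 26 (80.8%, against 69.6%). The core of the hypoxia response element, ACGTG, was in 7 of 26 (26.9%, against 30.1%). These shares describe exact letters in a window, and elements that differ from the letters searched were not counted. The 26 genes include Fads2, whose mean was below 1 TPM. Of the genes shown, Hmgcs1 and Mvk did not pass the test in any comparison, and Srebf1 passed in chronic hypoxia.

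The cells carried macrophage transcripts at high levels. The 6 macrophage markers Adgre1, Csf1r, Cd68, Itgam, Lyz2 and Fcgr1 summed to between 55364 and 73263 TPM per library. Most of each sum was Lyz2, at 52793 to 70403 TPM, and the lowest marker was Fcgr1, at 28.4 to 63.2 TPM. Summed markers of fibroblasts, neutrophils, T cells, B cells and dendritic cells were at most 2.72 TPM in any library, and 4 epithelial markers summed to 1.70 to 4.05 TPM, with 2 of them at 0 throughout. Between 10724 and 11208 genes reached 1 TPM per library. TPM keeps no record of depth, so depth is unknown and no counting error can be given. Of the 33 genes, 32 had a mean of at least 1 TPM over the 9 samples, 11 of them at 20 TPM or more. The median of the gene means was 9.96 TPM, against 16.3 TPM for all genes at 1 TPM or more. In bulk samples, a difference in the number of cells of a type and a difference in RNA per cell cannot be told apart.

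The sample labels also carry a code whose digits are shared by 1 sample of each group, but do not say what the code means. These 3 codes are written as X, Y and Z, and values are listed in that order within each group. Samples that share a code deviated from their group means together, so each test is given without a block and, where the call differs, with the code as a block. Fold changes are log2 differences on the log2(TPM + 1) scale with their standard error (SE), and p-values are from limma, adjusted over all genes tested by the Benjamini-Hochberg method, with a threshold of 0.05. Genes with a mean of at least 1 TPM over the 6 samples of a comparison were tested.

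The first comparison asks how 3 hours at 1% oxygen changed these genes. Most stayed close to their standard oxygen level, and 1 gene, the stearoyl-CoA desaturase Scd2, stood far from the rest, at 3.70 times its standard oxygen mean. Without a block, 0 of 32 genes tested passed, where 0.0273% of all genes tested did. Of the 32, 5 were below an unadjusted limma p of 0.05 (Scd2, Sqle, Srebf1, Stard4 and Fdps), as were 785 of all 10987 genes tested. With the code as a block, 1 of 32 passed (Scd2, higher), where 0.71% of all genes did, 0.655% in that direction. The median log2 fold change of the 32 was -0.05, against 0.01 over all genes, with 12 positive and 20 negative values. In 30 of the 32 the unadjusted 95% interval lay within 1 log2 unit of no change, the exceptions being Sqle and Scd2. All 3 acute samples lay above all standard oxygen samples for Sqle, Srebf1, Stard4 and Scd2 and below them for Acat2, Fdps, Ggps1, Nsdhl and Fads1. That is 4 and 5 of 32, where 7.63% of all genes lay above and 4.85% below.

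The second asks how 7 days at 1% oxygen changed them. The clearest difference was in Srebf1, at 1.46 times its standard oxygen mean, followed with the code as a block by Scd2 at 1.78 times and the squalene epoxidase gene Sqle at 1.51 times. Without a block, 1 of 31 genes tested passed (Srebf1, higher; 3.23%), where 2.69% of all genes did, 2.1% in that direction. With the code as a block, 3 of 31 passed (Scd2, Sqle and Srebf1, all higher; 9.68%), where 18.4% of all genes did, 15.1% in that direction. The share of these genes called was therefore near the background without a block and below it with the block. Their median log2 fold change was 0.07, against 0.16 over all genes. After rescaling of the libraries by median of ratios, which moved the median of all genes to near 0, it was -0.10. The split of positive to negative values was 19 to 12 as deposited and 13 to 18 after rescaling. All 3 chronic samples lay above all standard oxygen samples for Mvk, Pmvk, Idi1, Sqle, Srebf1, Stard4 and Scd2, and below them for Acat2. That is 7 and 1 of 31, where 24.2% of all genes lay above and 5.39% below.

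Chronic and acute hypoxia were also compared directly. Without a block, 0 of 31 genes tested passed, where 0.695% of all genes did. Of the 31, 6 were below an unadjusted limma p of 0.05, as were 2305 of all 11087 genes tested. With the code as a block, 2 of 31 passed (Scd2, lower in chronic hypoxia, and Srebf2, higher), where 15.5% of all genes did, 3.42% lower and 12.1% higher. The median log2 fold change was 0.04, against 0.14 over all genes. Chronic samples lay wholly above acute ones for Mvk, Pmvk, Idi1, Lss, Ebp, Srebf1 and Srebf2 and wholly below for Scd2, where 22.3% of all genes lay above and 5.5% below. The comparisons share samples, so their counts are not independent of each other.

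**Figure D1:**
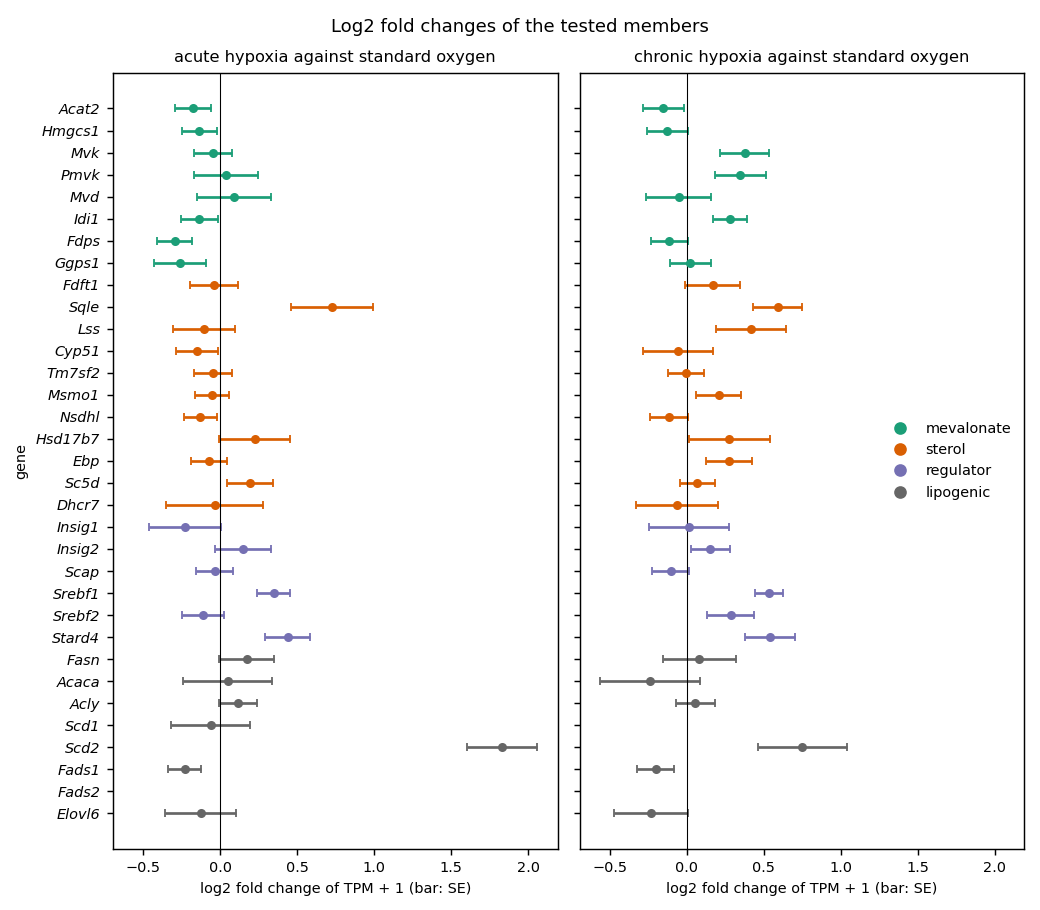
Log2 fold change of TPM + 1 for each gene tested, acute (left) and chronic hypoxia (right) against standard oxygen, with bars of 1 SE from limma without a block and colours for the role groups. Scd2 lies farthest to the right in acute hypoxia, at 1.83, most other genes lie close to 0, and Fads2 in both panels and Scd1 in the chronic panel have no point because they were below the filter.

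The mevalonate enzymes, which build isoprenoid units from acetyl-CoA, gave no call over the 6 samples of any comparison, with or without the code as a block. Their levels were low to moderate, from Acat2 at a mean of 5.91 ± 0.303 TPM (SD, n = 3) in standard oxygen to Fdps, which makes farnesyl diphosphate, at 28.1 ± 2.73 TPM. The median log2 fold change of the 8 was -0.14 in acute hypoxia, -0.02 in chronic hypoxia against standard oxygen, and 0.23 in chronic against acute hypoxia. Their unadjusted 95% intervals together spanned -0.67 to 0.66 in the acute comparison and -0.56 to 0.76 in the chronic one, so no fold change as large as 1 log2 unit lay within any of them.

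Mvk, which phosphorylates mevalonate, had the highest chronic fold change of the group. It was at 9.09, 8.44 and 8.32 TPM in standard oxygen, 7.29, 8.41 and 9.33 in acute hypoxia, and 10.0, 14.4 and 10.4 in chronic hypoxia. The 3 chronic values were above all others, and the code Y library was the highest of them. The log2 fold change was 0.37 ± 0.16 (SE) against standard oxygen (limma adjusted p = 0.228) and 0.42 ± 0.172 against acute hypoxia (adjusted p = 0.232). Without the chronic code Y library the value against standard oxygen was 0.22, and the highest of the group was then 0.34. Idi1, the isomerase of isopentenyl diphosphate, had a narrow spread, at 8.26 ± 0.234, 7.45 ± 0.776 and 10.3 ± 0.546 TPM in the standard, acute and chronic groups (SD, n = 3 each). All 3 of its chronic values were above all others, and its chronic to acute log2 fold change was 0.42 ± 0.123 (SE, limma adjusted p = 0.139, or 0.0718 with the block). Idi1 passed in that comparison in 1 of the other settings tried. Of its 75-base stretches 20.7% occur in other genes, so reads may have been divided between them.

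Acat2, an acetoacetyl-CoA thiolase, was the lowest of the group in chronic hypoxia. It was at 5.58, 6.17 and 5.98 TPM in standard oxygen, 5.15, 5.27 and 4.92 in acute hypoxia, and 5.53, 5.44 and 4.70 in chronic hypoxia. Both hypoxic groups lay below the standard oxygen values, by a margin that was small for code X. Its log2 fold change in chronic hypoxia was -0.15 ± 0.133 (SE, limma adjusted p = 0.537), and 40.7% of its stretches are shared with other genes, Acat3 and Tcp1. Fdps was at 22.7 ± 1.80 TPM in acute hypoxia (SD, n = 3), all samples below standard oxygen, with a log2 fold change of -0.30 ± 0.114 (SE, adjusted p = 0.652), and 9.24% of its stretches are shared. Hmgcs1 means were 10.6, 9.57 and 9.66 TPM in the standard, acute and chronic groups. Pmvk means were 7.65, 7.89 and 9.86 TPM, Mvd 9.24, 10.2 and 9.02 TPM, and Ggps1, which makes geranylgeranyl diphosphate, 8.60, 7.12 and 8.80 TPM.

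Of the 11 enzymes from squalene synthesis to cholesterol, 1 passed the test in chronic hypoxia against standard oxygen with the code as a block (Sqle, higher). Of all genes, 18.4% passed there, 15.1% in that direction. None of the 11 passed without a block over the 6 samples of a comparison. Sqle encodes squalene epoxidase, which inserts an oxygen atom into squalene. It was at 31.4, 29.7 and 41.8 TPM in standard oxygen, 46.4, 46.1 and 85.6 in acute hypoxia, and 51.0, 46.7 and 57.6 in chronic hypoxia. Neither hypoxic group overlapped standard oxygen, and the code Z library was the highest in each group. In acute hypoxia its log2 fold change was 0.73 ± 0.267 (SE, limma adjusted p = 0.611, or 0.088 with the block). Without the acute code Z sample that value was 0.44. Sqle passed in acute hypoxia with the block and all 9 samples in one fit, and unblocked without the code Z libraries. Its log2 fold change in chronic hypoxia was 0.59 ± 0.158 (adjusted p = 0.103), and Sqle rose there with the block (adjusted p = 0.0169, and 0.0395 with block and rescaling together). Between chronic and acute hypoxia it differed by -0.14 ± 0.25 (adjusted p = 0.794). Without the acute code Z sample this sign turned, to 0.15 (adjusted p = 0.49).

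The other 3 sterol enzymes that use oxygen did not pass in any comparison. Cyp51, the sterol 14-demethylase, was at 6.15, 6.12 and 4.88 TPM in standard oxygen, 5.07, 5.18 and 4.80 in acute hypoxia, and 4.73, 7.80 and 4.28 in chronic hypoxia. The groups overlapped, and the highest and the lowest of the 9 values were both chronic. Msmo1, which oxidises the methyl groups at carbon 4 of the sterol, was at 24.5, 26.4 and 25.6 TPM in standard oxygen, 26.9, 25.2 and 21.8 in acute hypoxia, and 35.1, 29.8 and 24.6 in chronic hypoxia. Its chronic values for codes X and Y were above all others, while that for code Z was within the standard oxygen range. Sc5d, the sterol C5-desaturase, was at 11.5, 11.1 and 12.3 TPM in standard oxygen, 11.5, 12.6 and 16.5 in acute hypoxia, and 13.1, 11.9 and 11.6 in chronic hypoxia. The acute code Z value stood above the rest. The log2 fold changes in chronic hypoxia were -0.06 ± 0.227 for Cyp51, 0.20 ± 0.143 for Msmo1 and 0.07 ± 0.111 for Sc5d (SE, limma adjusted p = 0.909, 0.439 and 0.752). After rescaling that of Sc5d was -0.10, and without the chronic code Z sample that of Cyp51 was 0.09.

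Lss, which closes epoxidised squalene into lanosterol, acts directly after squalene epoxidase. It was at 6.86 ± 1.74, 6.25 ± 0.99 and 9.48 ± 2.28 TPM in the standard, acute and chronic groups (SD, n = 3 each), and the chronic values lay above the acute ones. The log2 fold change of chronic against acute hypoxia was 0.52 ± 0.198 (SE, limma adjusted p = 0.212, or 0.0503 with the block). Lss passed in that comparison in 1 of the other settings tried. Ebp, a sterol isomerase, had means of 21.1, 19.97 and 25.8 TPM, and its chronic values also lay above the acute ones (log2 fold change 0.35, adjusted p = 0.215). Nsdhl, which takes part in removing the methyl groups at carbon 4, had the lowest chronic fold change of the group. It was at 8.33, 8.10 and 8.99 TPM in standard oxygen, 7.64, 7.48 and 7.86 in acute hypoxia, and 7.96, 8.39 and 6.91 in chronic hypoxia, a chronic log2 difference of -0.12 ± 0.126 (SE, adjusted p = 0.623). Its acute values were all below standard oxygen, while its chronic values overlapped them.

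With the codes left aside, the remaining sterol enzymes varied more within groups than between them. Dhcr7, the last reductase of one branch of the pathway, ranged from 22.6 to 41.1 TPM in standard oxygen, from 22.2 to 41.2 in acute hypoxia and from 22.0 to 34.8 in chronic hypoxia. The highest value of each group came from the code Z library. Hsd17b7 means were 5.67, 6.66 and 7.04 TPM and also had their highest value in code Z in each group. Fdft1, squalene synthase, had means of 5.34, 5.16 and 6.15 TPM. Tm7sf2, a sterol C14-reductase, was nearly level, at 29.7 ± 2.94, 28.8 ± 3.37 and 29.6 ± 2.33 TPM (SD, n = 3 each). For Fdft1, 25.4% of the stretches are shared with other genes.

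**Figure D2:**
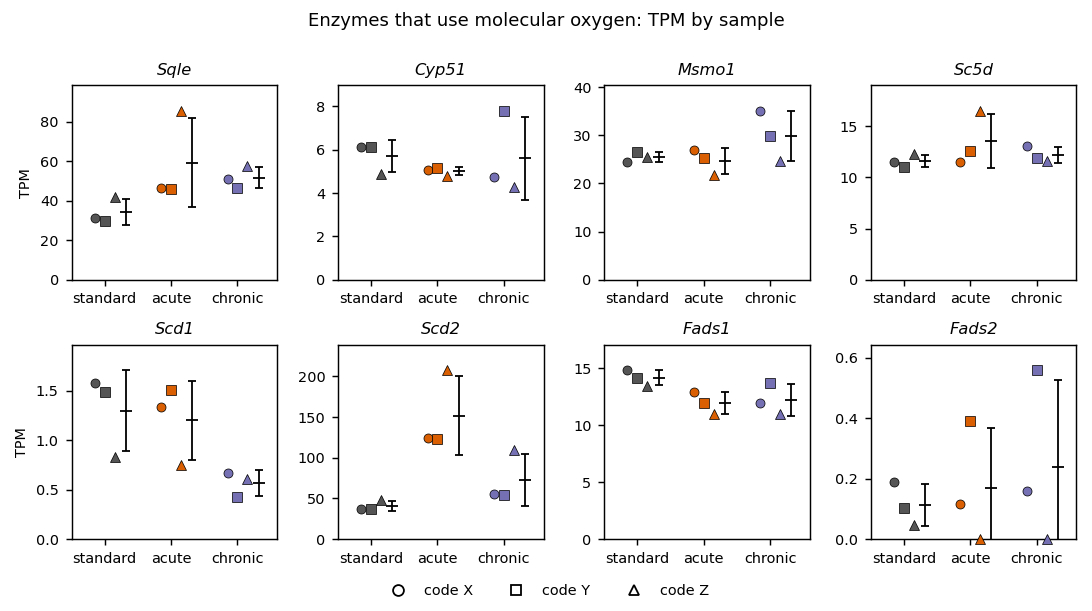
TPM of the 8 genes whose enzymes use molecular oxygen, by group and sample, with a marker shape for each sample code and bars for the group mean and SD (n = 3). Scd2 and Sqle are higher in all hypoxic samples than in all standard oxygen samples, while Cyp51, Msmo1 and Sc5d overlap between groups and Fads2 stays at or below 0.559 TPM, its error bars ending at the axis.

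Among the regulators, Srebf1 rose in chronic hypoxia. It was at 31.3, 30.2 and 32.2 TPM in standard oxygen, 41.4, 35.3 and 43.6 in acute hypoxia, and 43.9, 46.9 and 46.0 in chronic hypoxia. The groups did not overlap in any of the 3 comparisons, and standard and chronic samples had a narrow spread. The log2 fold change was 0.53 ± 0.0896 (SE) in chronic hypoxia against standard oxygen, which passed with limma (adjusted p = 0.0391, or 0.0169 with the block). In acute hypoxia it was 0.35 ± 0.107 (adjusted p = 0.506, or 0.173 with the block), and between chronic and acute hypoxia 0.19 ± 0.11 (adjusted p = 0.383). Relative to the shift of all genes, after rescaling, the chronic value was 0.36 (adjusted p = 0.114 without a block, 0.044 with it). The call without a block was also lost, with the value between 0.51 and 0.56, on leaving out either the code X or the code Y library of standard oxygen or of chronic hypoxia (adjusted p = 0.18, 0.188, 0.123 and 0.186).

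Srebf2, the gene of SREBP2, was at 23.0, 26.5 and 19.7 TPM in standard oxygen, 20.9, 23.3 and 19.4 in acute hypoxia, and 27.3, 32.6 and 24.9 in chronic hypoxia. All chronic values lay above the acute ones, and within each group the order of the codes was Y, X, Z. The log2 fold change of chronic against acute hypoxia was 0.39 ± 0.134 (SE, limma adjusted p = 0.177), and Srebf2 rose in that comparison with the block (adjusted p = 0.0352). After rescaling, the blocked value was 0.24 (adjusted p = 0.113). Against standard oxygen it was 0.28 ± 0.152 in chronic hypoxia (adjusted p = 0.318, or 0.0551 with the block) and -0.11 ± 0.136 in acute hypoxia (adjusted p = 1). With the block and all 9 samples in one fit, Srebf2 passed in chronic hypoxia against standard oxygen.

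The proteins that hold or move SREBPs showed no call. Scap, which encodes the SREBP escort, was at 18.6, 22.0 and 20.8 TPM in standard oxygen, 19.96, 17.7 and 22.2 in acute hypoxia, and 17.6, 18.2 and 21.1 in chronic hypoxia. Insig1 was at 9.65, 11.3 and 6.39 TPM in standard oxygen, 6.31, 6.87 and 9.44 in acute hypoxia, and 8.74, 12.0 and 6.89 in chronic hypoxia. Insig2 was at 33.5, 35.6 and 42.0 TPM in standard oxygen, 32.6, 41.0 and 51.6 in acute hypoxia, and 38.6, 39.3 and 45.6 in chronic hypoxia. The groups overlapped for all 3 genes. Insig2 was the higher of the INSIG genes in every sample, and its code Z library was the highest in each group. The chronic log2 fold changes were -0.10 ± 0.12 for Scap, 0.01 ± 0.258 for Insig1 and 0.15 ± 0.127 for Insig2 (SE, limma adjusted p = 0.643, 0.982 and 0.519). After rescaling, the INSIG values were -0.15 and -0.03.

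Stard4, a cytosolic sterol transporter, had the highest chronic fold change of the regulators, just above that of Srebf1. It was at 4.41, 4.73 and 4.34 TPM in standard oxygen, 7.18, 5.37 and 6.88 in acute hypoxia, and 7.41, 8.13 and 5.60 in chronic hypoxia. All 6 hypoxic values lay above the 3 standard oxygen values. The log2 fold change was 0.44 ± 0.146 (SE) in acute hypoxia (limma adjusted p = 0.559) and 0.54 ± 0.164 in chronic hypoxia (adjusted p = 0.127, or 0.0505 with the block), so neither passed in these fits. With the block and all 9 samples in one fit, Stard4 passed in chronic hypoxia against standard oxygen.

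**Figure D3:**
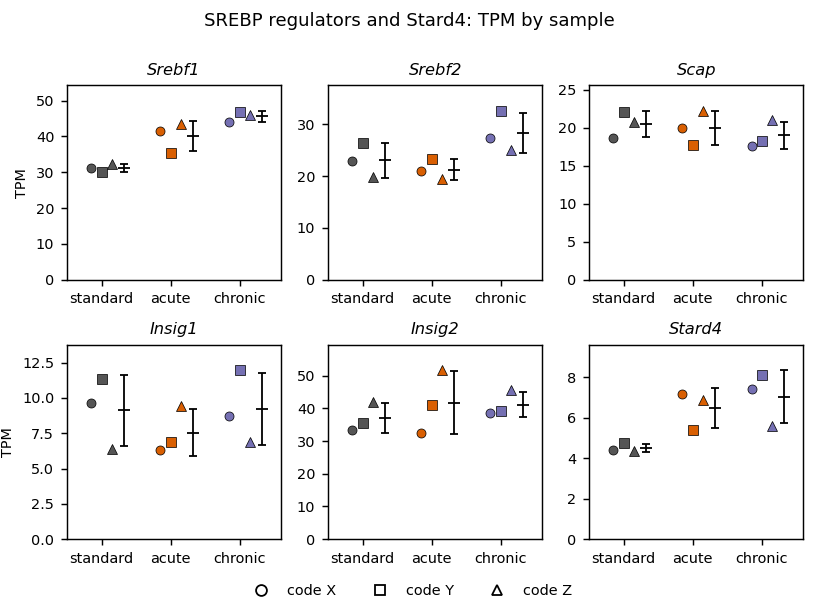
TPM of the 6 regulators and transport proteins by group and sample, with a marker shape for each sample code and bars for the group mean and SD (n = 3). Srebf1 and Stard4 are higher in every hypoxic sample than in every standard oxygen sample, and Scap, Insig1 and Insig2 overlap between groups.

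Among the lipogenic enzymes, Scd2 had the widest range of all 33 genes between groups. Scd2 encodes a stearoyl-CoA desaturase, which uses oxygen to place a double bond in saturated fatty acids. It was at 36.7, 37.6 and 48.5 TPM in standard oxygen, 124, 122 and 207 in acute hypoxia, and 55.3, 53.8 and 110.0 in chronic hypoxia. No group overlapped another, and the code Z library was the highest in each. The means were 40.9 ± 6.58, 151 ± 48.5 and 73.0 ± 31.98 TPM (SD, n = 3 each), so chronic hypoxia stood at 0.482 times the acute mean and 1.78 times the standard one. Within codes X, Y and Z, the acute sample exceeded its standard oxygen partner by 1.74, 1.68 and 2.07 on the log2 scale, and the chronic sample did so by 0.58, 0.51 and 1.16.

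For Scd2, the log2 fold change in acute hypoxia was 1.83 ± 0.23 (SE, limma adjusted p = 0.0709 without a block). With the code as a block its SE was 0.0988 and it rose (adjusted p = 0.00927). In chronic hypoxia against standard oxygen it was 0.75 ± 0.289 (adjusted p = 0.192), and it rose with the block (adjusted p = 0.0332). With block and rescaling together that p was 0.0797. Between chronic and acute hypoxia it was -1.08 ± 0.333 (adjusted p = 0.151), and it fell with the block (adjusted p = 0.00748). The chronic value moved with 1 library: without the chronic code Z sample it was 0.42. Without the code Z libraries of both groups, the log2 fold changes were 1.71 in acute hypoxia (adjusted p = 0.00199), 0.54 in chronic hypoxia (adjusted p = 0.0114) and -1.16 between them (adjusted p = 0.00289).

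Scd1, the desaturase best known from liver and fat, was near the filter of 1 TPM. It was at 1.58, 1.48 and 0.828 TPM in standard oxygen, 1.34, 1.51 and 0.752 in acute hypoxia, and 0.674, 0.425 and 0.614 in chronic hypoxia. All chronic values were below all others, but the gene was tested only in acute hypoxia, where its log2 fold change was -0.06 ± 0.257 (SE, limma adjusted p = 1). Scd2 made up 95.9% to 98.3% of the summed Scd1 and Scd2 TPM in standard oxygen samples and 98.8% to 99.6% in hypoxic samples. The 2 genes shared few 75-base stretches with any other gene, 3.24% for Scd1 and 1.80% for Scd2.

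The desaturases of polyunsaturated fatty acids did not pass. Fads1, the delta-5 desaturase, was at 14.8, 14.2 and 13.5 TPM in standard oxygen, 12.9, 11.9 and 11.0 in acute hypoxia, and 11.9, 13.7 and 11.0 in chronic hypoxia. The acute values were all below standard oxygen, and the chronic ones overlapped it by the code Y sample. The log2 fold change was -0.23 ± 0.106 (SE) in acute hypoxia (limma adjusted p = 0.765) and -0.20 ± 0.121 in chronic hypoxia (adjusted p = 0.368). Fads2, the delta-6 desaturase, was below the filter in all comparisons. It was listed at 0.188, 0.104 and 0.0473 TPM in standard oxygen, 0.115, 0.389 and 0 in acute hypoxia, and 0.161, 0.559 and 0 in chronic hypoxia.

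The enzymes that make and extend saturated fatty acids gave no call. Acly, which makes cytosolic acetyl-CoA from citrate, was the highest of the 33 genes in standard oxygen, at 72.1 ± 7.76 TPM (SD, n = 3), with 78.2 ± 8.67 in acute and 75.0 ± 8.72 in chronic hypoxia. Fasn, fatty acid synthase, had means of 15.9 ± 2.87, 18.1 ± 3.04 and 17.3 ± 5.61 TPM. Scd1 and Fads2 were below the filter in chronic hypoxia. Of the 6 lipogenic genes tested there, Acaca, which makes malonyl-CoA, had the lowest fold change, at -0.24 ± 0.324 (SE, limma adjusted p = 0.697). It was at 9.54, 17.6 and 22.5 TPM in standard oxygen, 14.97, 15.8 and 18.0 in acute hypoxia, and 9.68, 14.9 and 15.5 in chronic hypoxia. Without 1 standard oxygen sample the value was -0.57 (code X left out) or 0.01 (code Z left out). Its groups overlapped, with code X low in both standard oxygen and chronic hypoxia, and 47.4% of its stretches are shared with another gene, Gm5182. Elovl6, a fatty acid elongase, had means of 2.01, 1.72 and 1.52 TPM.

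The enzymes that use oxygen were set beside those that do not. In acute hypoxia the median log2 fold change was -0.05 over the 7 oxygen-using enzymes tested and -0.05 over the 19 others. In chronic hypoxia it was 0.14 over 6 and 0.02 over 19, against 0.16 over all genes, and after rescaling -0.04 and -0.14, so both turned negative. The values of the oxygen-using enzymes tested ran from that of Scd2 at the top to that of Fads1 at the bottom in both comparisons. Scd1 was below the filter in the chronic comparison. Without a filter its chronic log2 fold change was -0.54, the lowest of the 8 oxygen-using enzymes, and their median was 0.10. Summed without Scd2, the oxygen-using enzymes were at 89.1 to 98.9 TPM in standard oxygen, 103 to 140.5 in acute hypoxia and 109.7 to 117 in chronic hypoxia, and Sqle was the largest part of each of these sums. The rise of Sqle itself, from 29.7 to 41.8 TPM up to 46.1 to 85.6 and 46.7 to 57.6 TPM, is contained in them. No other enzyme in these sums had all its acute or all its chronic values above standard oxygen. No difference between the sets of enzymes was tested.

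The code Z libraries stood apart for several of these genes. They were the highest of their group for Scd2, Sqle, Dhcr7, Hsd17b7, Mvd, Fdft1, Fasn and Acly in all 3 groups. Their log2 excess over the mean of the other libraries of the group was 0.38, 0.745 and 1.00 for Scd2 and 0.79, 0.85 and 0.54 for Dhcr7, in standard, acute and chronic samples. They were the lowest of their group for Lss in hypoxia and for Cyp51 and Srebf2 in all 3 groups. The part of the code in any result beyond the blocked values given here was not tested.

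**Figure D4:**
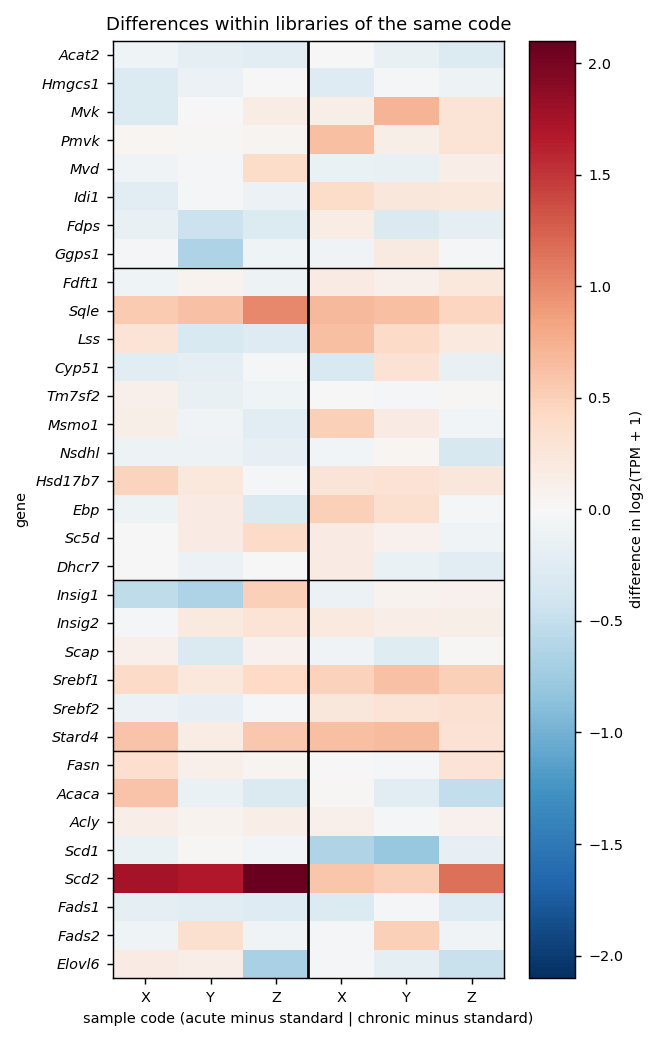
Difference in log2(TPM + 1) between hypoxic and standard oxygen samples of the same code, 1 column per code and comparison and 1 row per gene, with red for higher and blue for lower in hypoxia. Scd2 is higher in all 6 columns, from 0.51 to 2.07, and Sqle, Srebf1 and Stard4 are also higher in all 6, while most other rows hold small values or both signs.

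The other genes of the pathway were taken from a list of 35, of which 32 were tested. In acute hypoxia 0 of 32 passed with limma, with or without the code as a block. Without the block, 785 of all 10987 genes tested were below an unadjusted limma p of 0.05, and so was 1 of the 32. That gene was Rnf145, a ubiquitin ligase of the endoplasmic reticulum, at 25.5, 34.1 and 44.1 TPM in standard oxygen, 50.9, 51.1 and 56.6 in acute hypoxia, and 60.1, 62.0 and 47.0 in chronic hypoxia. All its hypoxic values lay above the standard oxygen ones, with a log2 fold change of 0.63 ± 0.194 (SE, limma adjusted p = 0.505) in acute hypoxia. In chronic hypoxia against standard oxygen 6 of 32 passed without a block, 1 higher and 5 lower (18.8%, where 2.69% of all genes did, 2.1% higher and 0.596% lower). With it 10 passed, 5 in each direction (31.2%, where 18.4% of all genes did, 15.1% higher and 3.3% lower). Against acute hypoxia 4 passed without a block, 1 higher and 3 lower (12.5%, where 0.55% of all genes were called higher and 0.144% lower), and 9 with it, 5 higher and 4 lower (28.1%, where 15.5% of all genes did, 12.1% higher and 3.42% lower). After rescaling, 6 passed in chronic hypoxia against standard oxygen without a block, 1 higher and 5 lower. Of all 11057 genes, 115 were called higher there and 119 lower. With block and rescaling 10 passed, 3 higher and 7 lower, where 613 of all genes were called higher and 657 lower.

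Electron donors feed the oxygen-using enzymes: cytochrome P450 reductase, the product of Por, serves Cyp51 and squalene epoxidase, and cytochrome b5 serves the desaturases and sterol oxidases. Por and Cyb5a, the gene of microsomal cytochrome b5, fell in chronic hypoxia. Por was at 616, 630 and 535 TPM in standard oxygen, 553, 495 and 588 in acute hypoxia, and 335, 304 and 313 in chronic hypoxia. Cyb5a was at 577, 576 and 531 TPM in standard oxygen, 595, 573 and 485 in acute hypoxia, and 342, 329 and 270 in chronic hypoxia. For both genes every chronic value was below every other value. The log2 fold change in chronic hypoxia was -0.90 ± 0.107 for Por and -0.84 ± 0.121 for Cyb5a (SE, limma adjusted p = 0.0186 and 0.0298). Against acute hypoxia they were -0.78 for Por (adjusted p = 0.0479) and -0.81 for Cyb5a (adjusted p = 0.0603, or 0.00757 with the block). Cyb5b, the mitochondrial form, had means of 45.1, 46.9 and 41.5 TPM, and Cyb5r3, the reductase of cytochrome b5, 201, 202 and 208 TPM, with no call.

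Of 12 listed genes of lipogenic supply and elongation, 10 were tested, and 2 of these fell in chronic hypoxia with or without the block, where 0.596% of all genes fell without it and 3.3% with it. Me1, malic enzyme, a source of NADPH, fell from 20.7 ± 1.01 TPM in standard oxygen to 7.94 ± 1.04 in chronic hypoxia (SD, n = 3 each), a log2 fold change of -1.28 ± 0.126 (SE, limma adjusted p = 0.0101). Its acute mean was 19.8 ± 0.894 TPM, and 18.9% of its stretches are shared with other genes. Acss2, which makes acetyl-CoA from acetate, fell from 5.37 ± 0.65 to 2.32 ± 0.309 TPM (log2 fold change -0.94, adjusted p = 0.0437). Nr1h3, the gene of the liver X receptor alpha, an oxysterol receptor known to switch on Srebf1, fell from 18.2 ± 2.81 to 8.68 ± 0.727 TPM (log2 fold change -0.98, adjusted p = 0.0307), with an acute mean of 19.4 ± 1.30 TPM. Srebf1 itself was higher in the same samples. Nr1h2, the other listed liver X receptor gene, had standard, acute and chronic means of 67.4, 72.7 and 76.3 TPM, with no call. All its hypoxic values lay above the standard oxygen ones, by a small margin in acute hypoxia. Whether the difference in Srebf1 depends on either gene was not tested. Of 4 listed liver X receptor and ChREBP genes, 3 were tested and Nr1h3 was the one that passed. In chronic hypoxia against standard oxygen, 0.596% of all genes fell without a block and 3.3% with it. After rescaling, 119 of 11057 genes fell without a block and 657 with it, and Me1, Acss2 and Nr1h3 passed in both fits.

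Of 8 listed genes of SREBP processing and of the degradation of sterol-regulated proteins, 1 rose in chronic hypoxia without a block, where 2.1% of all genes rose, and 4 rose with it, where 15.1% did. Erlin1, an endoplasmic reticulum protein that takes part in degrading sterol-regulated membrane proteins, rose from 14.9 ± 1.52 TPM in standard oxygen to 27.1 ± 0.898 in chronic hypoxia (SD, n = 3 each), a log2 fold change of 0.82 (limma adjusted p = 0.0271), with an acute mean of 15.6 ± 0.59 TPM. With the block, Erlin2, its partner, Mbtps1, which encodes the first protease to cut SREBPs, and Rnf139, a ubiquitin ligase, also rose in chronic hypoxia (log2 fold changes 0.43, 0.63 and 0.41, adjusted p = 0.0393, 0.0131 and 0.0367). With block and rescaling together, Mbtps1 still passed (adjusted p = 0.0275), and Erlin2 and Rnf139 did not (adjusted p = 0.145 and 0.128). Lbr, the lamin B receptor, which carries the same C14-reductase activity as Tm7sf2, had means of 3.94, 4.57 and 10.6 TPM and rose with the block (log2 fold change 1.25, adjusted p = 0.0104, or 0.068 without it). For Lbr 10.7% and for Rnf139 27.8% of the stretches are shared with other genes. Mid1ip1, an activator of acetyl-CoA carboxylase, was at 158, 147 and 85.6 TPM in standard oxygen, 102, 110.1 and 53.9 in acute hypoxia, and 157, 164 and 77.7 in chronic hypoxia. Its code Z value was the lowest in each group, and it was higher in chronic than in acute hypoxia with the block (log2 fold change 0.57, adjusted p = 0.0129, or 0.436 without it). Without the acute or the chronic code Z sample the unblocked value was 0.25 or 0.91, and that of Erlin2 in chronic hypoxia was 0.28 without the standard oxygen code Z sample.

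The unblocked calls of these other pathway genes rested on few samples. Without the code X or the code Y library of standard oxygen or chronic hypoxia, the limma adjusted p-values of Por, Cyb5a, Me1, Acss2, Nr1h3 and Erlin1 in chronic hypoxia ran from 0.0658 to 0.195, except that Me1 still passed without the chronic code X library (0.0481). Acss2 also lost its call without the chronic code Z library (0.0563). In chronic against acute hypoxia, leaving out a code X or code Y library ended the calls of Por, Me1, Nr1h3 and Erlin1 (adjusted p from 0.139 to 0.236), and Por also lost its call without the acute code Z library (0.0609). No fold change of these genes turned its sign.

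**Figure D5:**
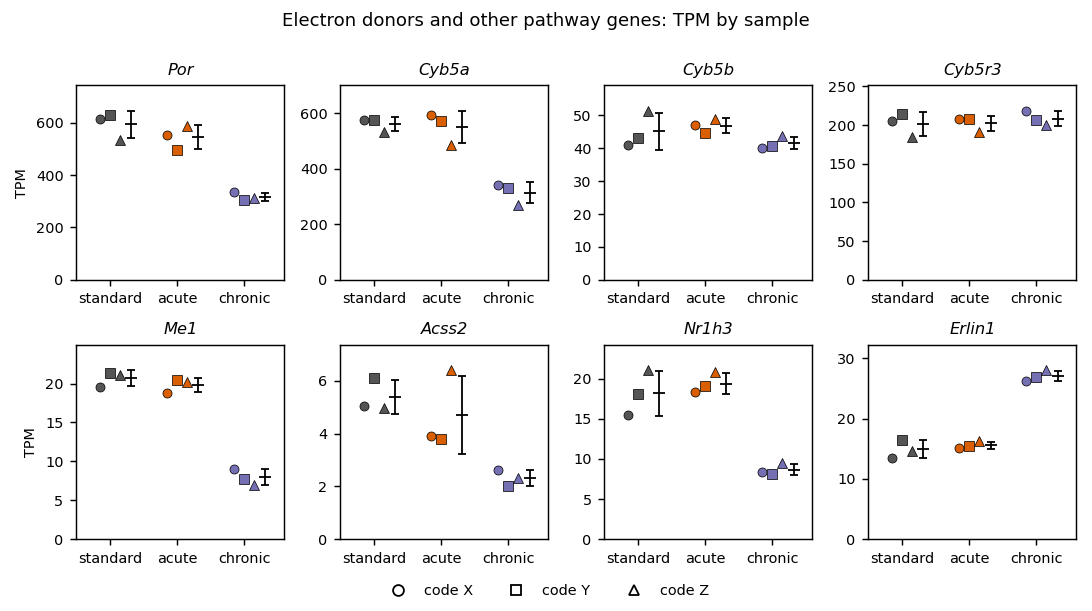
TPM of electron donors and other pathway genes by group and sample, with a marker shape for each sample code and bars for the group mean and SD (n = 3). Por, Cyb5a, Me1, Acss2 and Nr1h3 are lower and Erlin1 is higher in every chronic sample than in every other sample, while Cyb5b and Cyb5r3 keep similar means in the 3 groups.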

How the data were processed

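mRNA libraries from 9 macrophage samples (3 groups of 3) were read as paired ends of 75 bases, per the labels' protocols. As deposited by the authors, the values are TPM per gene in 3 tables, 1 for each pair of groups. Each sample had identical values in its 2 tables. STAR, featureCounts, FastQC and the build GRCm38 are named in the submitters' processing notes, without versions. How TPM was computed, the annotation and the strand setting are not given in the sources used here. TPM keeps no depth, so no count test was used and the replicate spread was the only error. Symbols matched 34582 of 34866 identifiers.

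Each comparison was fitted on its 6 samples with limma 3.58.1 in R 4.3.3 (lmFit, eBayes with trend, two-sided) on log2(TPM + 1), over genes with a mean of at least 1 TPM in those samples. Adjustment was by Benjamini-Hochberg over all genes tested, with a threshold of 0.05. The procedure was run on simulated data for the acute and standard groups. The check there was on the median size of the fold changes and set no limit on false calls. Alternatives covered pseudocounts of 0.1 and 5, other filters on low values, no trend, rescaling by median of ratios, quantile normalization, all 9 samples in one fit, both blocks, and fits without single samples or codes. On this scale the change of genes with low values is understated. The sample code was taken as pairing the samples because the deviations of same-coded samples from their group means correlated in every pair, over 11065 genes (r = 0.394, 0.378 and 0.539 for codes X, Y and Z in acute against standard samples, 0.389, 0.421 and 0.535 in chronic against standard samples, 0.589, 0.399 and 0.633 in chronic against acute samples). The replicate numbers in the titles go with the same code in all groups for number 1 alone. With these numbers r was 0.394, -0.472 and -0.287 in the acute comparison. A gene was treated as uncertain where at least 5% of the 75-base stretches of its longest GENCODE M21 transcript occur in another gene.

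Values in every sample are given for genes past the threshold with or without the code block and for the 8 oxygen-using enzymes. The same holds for the SREBP, SCAP and INSIG genes. It also holds for the tested genes with the highest and lowest chronic fold change of each role group. Of the other pathway genes, those past the threshold may be named. Fdps, Idi1, Lss and other members outside this rule, and Rnf145, Nr1h2, Cyb5b and Cyb5r3, were named after their values were seen. The genes, lists and tests were chosen with earlier results of these data known.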

Additional observations from a re-analysis of the deposited data

How the results depend on the processing

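The number of the 33 genes past the threshold stayed between 0 and 5 under every setting tried. In acute hypoxia against standard oxygen, where 0 passed with limma (5 at an unadjusted p under 0.05), 1 passed after median-of-ratios rescaling, 1 after quantile normalization, 1 with the code as a replicate block, 1 with block and rescaling, 2 with the block and all 9 samples in one fit, and 2 without the code Z libraries. Where 2 passed, they were Scd2 and Sqle. Of all genes, 21 of 10973, 23 of 10987, 78 of 10987, 54 of 10973, 205 of 10987 and 319 of 10827 passed, in the same order. In chronic hypoxia against standard oxygen, where 1 passed, 0 passed with a fold change of at least 1 log2 unit added, without the trend, after rescaling, after quantile normalization, and without the code X or the code Y libraries. Of all genes, 147 of 11067, 166 of 11067, 234 of 11057, 214 of 11067, 1 of 11119 and 1 of 11101 passed, in the same order. The title number as a replicate block gave 0, the code as a block 3, code block with rescaling 2, code block with all 9 samples 5, and leaving out the code Z libraries 4. The 5 were Scd2, Sqle, Srebf1, Srebf2 and Stard4. Of all genes, 1 of 11067, 2039 of 11067, 1270 of 11057, 2916 of 11067 and 2300 of 10924 passed, in the same order. In chronic against acute hypoxia, where 0 passed (6 unadjusted), the title number or the code as a block gave 2, code block with rescaling 1, code block with all 9 samples 4, and leaving out the code Z libraries 1. Of all genes, 1724 of 11087, 1084 of 11077, 2464 of 11087 and 1788 of 10952 passed, in the same order. Leaving out 1 replicate at a time gave 0 to 0, 0 to 2 and 0 to 0 genes in the acute, chronic and chronic against acute comparisons, with Sqle and Srebf1 both past it without the standard oxygen sample of code Z. In that chronic fit, 522 of all 11023 genes passed. Over all genes, the fits without 1 replicate gave 0 to 33, 1 to 522 and 1 to 308 calls in the 3 comparisons. The sign turned for Sqle in chronic against acute hypoxia, to 0.0758 without the code Z libraries and to 0.154 without the acute code Z sample (range -0.285 to 0.154 on leaving out 1 replicate). In chronic hypoxia against standard oxygen, values of genes that passed no test also turned sign: Sc5d to -0.0995 after rescaling, with or without the code as a replicate block, and -0.119 after quantile normalization, Insig2 likewise to -0.0264 and -0.0216, and Insig1 to -0.15 and -0.167. Without code X libraries Cyp51 was 0.0747, and without code Y or code Z libraries Insig1 was -0.016 or -0.027. On leaving out 1 replicate the ranges were -0.571 to 0.0082 for Acaca, -0.282 to 0.0861 for Cyp51 and -0.197 to 0.184 for Insig1, and in acute hypoxia -0.22 to 0.0934 for Scd1. No other fold change followed through the settings turned its sign. The cause of these changes was not tested, except that fits with fewer samples have fewer degrees of freedom. In fits that leave out a replicate the remaining samples are assumed to vary alike. Depth is unknown, so the precision of the low genes Scd1, Fads2 and Elovl6 cannot be stated.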
